A study of Mus musculus with 2 samples.

Results

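Mitochondria make a small set of respiratory chain proteins on their own ribosome, the mitoribosome, whose protein subunits are all encoded in the nucleus, made in the cytosol and imported. Mrpl genes are named for the large mitoribosomal subunit and Mrps genes for the small subunit, with exceptions given below. Imported proteins cross the outer membrane through the TOM complex, and the TIM complexes then sort them into or across the inner membrane. The genes described here are those whose symbol begins with Mrpl, Mrps, Timm or Tomm followed by a digit, taken from probe sets with a single gene symbol. They number 95 of the 12393 genes read by the array under 1 symbol, and 169 of its 22626 probe sets that are no controls: 47 Mrpl, 27 Mrps, 14 Timm and 7 Tomm genes. The members were chosen by a rule on their names that uses no measured value, with earlier results of these data known.

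Total RNA came from testes of 17 day old mice on a mixed 129SV and C57BL background, either wild type or UBR2-/-, which lack the ubiquitin ligase UBR2 of the N-end rule pathway. There was 1 array for each genotype (n = 1). The design text gives 2 testes from separate animals of a litter behind each array and does not say if their RNA was pooled. In a testis at this age the first wave of germ cells has reached mid-meiosis, and germ cells change the form and number of their mitochondria as they pass through it. Because each array reads a whole testis, fewer cells of a type and less RNA per cell cannot be told apart. No replicate stands behind any value and no test could be made, so every difference below describes these arrays alone.

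Signals are linear intensities on the authors' scale, and ratios are UBR2-/- over wild type on the log2 scale. Signals under the 40th percentile of an array (24.4 for wild type, 24.7 for UBR2-/-) were raised to that floor before the ratio was taken, and a gene was compared where its brightest probe set averaged no less than the mean of both floors. All 95 members passed this filter, as did 8091 of the 12393 genes in all. The targeted gene Ubr2 read 57.2 in wild type and 14.3 in UBR2-/-, at least 2.32-fold lower against the floor, by 1 probe set whose place relative to the deleted part is not known here. The spread between probe sets of the same gene was taken as a measure of technical spread. Over all genes a single probe set's log2 ratio had an SD of 0.24 where the pair was dim, 0.19 at intermediate signal and 0.13 where it was bright. Among the members with such a pair it was 0.28 (6 dim), 0.27 (14 intermediate) and 0.12 (13 bright). This spread leaves out error between arrays and animals.

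Promoters of the members are shown next because some motifs were more frequent at the members' starts than at those of other genes, a feature the naming rule did not use. RefSeq windows (GRCm38.p6, from 250 bases before to 50 after a gene's start) were at hand for 84 of the 95 members, in 92 windows. They were searched for the letters of factors known to drive nuclear genes for mitochondria: for NRF1, GCGCA and GCGC with any 1 base between them; for ETS family factors, CCGGAAG; for YY1, AAGATGGCG. These were read on both strands, and TATAAA was read on the sense strand. The ETS letters stood in 37% of member windows, in 18.5% of the windows of all compared genes and in 8.86% of all 32851 RefSeq windows. The YY1 letters stood in 8.7%, 3.16% and 1.4% of the same windows, and the NRF1 letters in 15.2%, 11% and 4.6%. TATAAA was in 4.35% of member windows and 4.18% of windows of compared genes. At least 1 of the NRF1, ETS and YY1 motifs was in 50 of the 92 member windows (54.3%), against 29.3% for compared genes and 13.6% for all windows. A match is a description of the letters and not of a bound site.

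The Timm8 paralogs, the Timm17 paralogs and the other members farthest above 0 are printed because the results turn on them, 5′ to 3′ on the gene's strand, in lower case with motif matches in capitals. A motif on the other strand appears as its reverse complement.
Timm8a2, chr14:122034424-122034723, plus strand: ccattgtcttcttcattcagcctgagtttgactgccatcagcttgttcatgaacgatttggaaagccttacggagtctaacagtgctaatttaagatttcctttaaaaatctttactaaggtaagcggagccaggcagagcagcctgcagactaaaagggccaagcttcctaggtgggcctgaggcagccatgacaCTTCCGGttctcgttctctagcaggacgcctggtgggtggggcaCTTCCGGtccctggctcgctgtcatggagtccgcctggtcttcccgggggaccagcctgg
Timm8a1, chrX:134541621-134541920, minus strand: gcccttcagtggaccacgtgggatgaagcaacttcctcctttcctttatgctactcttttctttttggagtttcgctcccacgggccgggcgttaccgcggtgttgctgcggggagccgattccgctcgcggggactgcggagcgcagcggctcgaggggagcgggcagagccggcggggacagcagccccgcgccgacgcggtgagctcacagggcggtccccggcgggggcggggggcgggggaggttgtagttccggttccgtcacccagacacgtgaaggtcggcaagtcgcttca
Timm8b, chr9:50603651-50603950, plus strand: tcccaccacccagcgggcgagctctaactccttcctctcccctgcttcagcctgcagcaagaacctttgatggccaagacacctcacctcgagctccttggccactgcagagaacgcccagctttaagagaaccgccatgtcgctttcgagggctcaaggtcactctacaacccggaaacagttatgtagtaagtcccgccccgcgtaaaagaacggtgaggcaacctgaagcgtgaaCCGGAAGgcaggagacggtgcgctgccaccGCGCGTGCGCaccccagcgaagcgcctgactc
Timm17a, chr1:135313688-135313987, minus strand: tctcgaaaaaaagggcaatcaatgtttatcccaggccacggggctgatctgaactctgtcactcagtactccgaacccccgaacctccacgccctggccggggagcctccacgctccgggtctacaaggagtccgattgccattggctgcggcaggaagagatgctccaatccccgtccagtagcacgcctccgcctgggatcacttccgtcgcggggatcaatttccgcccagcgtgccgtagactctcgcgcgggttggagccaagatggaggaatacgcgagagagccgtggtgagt
Timm17b, chrX:7899086-7899385, plus strand: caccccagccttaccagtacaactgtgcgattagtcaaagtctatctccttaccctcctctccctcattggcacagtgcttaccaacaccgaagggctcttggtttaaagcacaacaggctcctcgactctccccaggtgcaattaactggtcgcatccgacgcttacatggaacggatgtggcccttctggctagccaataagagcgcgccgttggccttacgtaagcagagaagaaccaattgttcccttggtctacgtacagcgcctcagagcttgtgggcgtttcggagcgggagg
Mrpl23, chr7:142532782-142533081, plus strand: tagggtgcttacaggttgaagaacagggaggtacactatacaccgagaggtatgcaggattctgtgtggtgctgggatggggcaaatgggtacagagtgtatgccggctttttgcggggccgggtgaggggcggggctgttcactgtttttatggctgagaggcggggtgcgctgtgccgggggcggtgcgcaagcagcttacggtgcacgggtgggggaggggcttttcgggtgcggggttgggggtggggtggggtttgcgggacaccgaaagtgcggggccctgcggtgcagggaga
Mrps6, chr16:92058086-92058385, plus strand: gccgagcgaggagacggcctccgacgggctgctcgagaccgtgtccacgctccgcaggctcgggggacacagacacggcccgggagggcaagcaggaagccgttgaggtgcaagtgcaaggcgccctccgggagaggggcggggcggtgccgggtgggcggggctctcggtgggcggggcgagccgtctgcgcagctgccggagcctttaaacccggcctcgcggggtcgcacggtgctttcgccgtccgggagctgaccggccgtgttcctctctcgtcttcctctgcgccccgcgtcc
In these windows Timm8a2 held the ETS letters at 2 places and Timm8b held an ETS and an NRF1 match. Timm8a1, Timm17a, Timm17b, Mrpl23 and Mrps6 held none of the motifs searched, which says only that these letters are not in these windows.

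Shorter stretches around a match show how the motifs look in other members, with 20 bases on each side where the window allows.
Mrpl39, NRF1, chr16:84735340-84735389, minus strand: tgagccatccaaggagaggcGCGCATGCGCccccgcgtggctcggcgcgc
Tomm20, NRF1, chr8:126945912-126945961, minus strand: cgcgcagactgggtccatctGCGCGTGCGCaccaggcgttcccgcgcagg
Mrps18a, YY1, chr17:46110995-46111043, plus strand: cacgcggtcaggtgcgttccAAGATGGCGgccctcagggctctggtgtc
Mrpl37, YY1, chr4:107066817-107066860, minus strand: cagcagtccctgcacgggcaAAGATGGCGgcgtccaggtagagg
Mrpl51, ETS, chr6:125192090-125192136, plus strand: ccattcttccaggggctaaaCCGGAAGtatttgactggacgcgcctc
Timm23, ETS, chr14:32201912-32201958, minus strand: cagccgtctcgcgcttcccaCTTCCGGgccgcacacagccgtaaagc
The YY1 matches of Mrps18a and Mrpl37 begin 11 and 26 bases after the annotated start, while the NRF1 match of Mrpl39 begins 125 bases before it. The 49 members with any of the NRF1, ETS and YY1 motifs had a median log2 ratio of 0.01, and the 35 without had 0.11. The 8 members with the YY1 letters had a median of -0.07, from -0.47 to 0.15, and the 76 without had 0.10. The 14 with NRF1 letters had 0.08 and the 70 without had 0.06. The 33 with ETS letters had 0 and the 51 without had 0.09.

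The mitoribosome and import genes lay close to equal signal on both arrays. Of the 95 members, 1 was lower by 2-fold or more in UBR2-/-, 0 were higher by as much and 94 lay between. Over all 8091 compared genes 3.52% were at least 2-fold lower and 0.346% at least 2-fold higher. The median log2 ratio of the members was 0.06, against 0.07 for all compared genes, and 46 members lay above that median and 49 below it. At a threshold of 1.5-fold, 3 members were higher and 1 was lower, while the shares over all compared genes were 4.25% higher and 7.71% lower. The members' ratios had quartiles of -0.15 and 0.18 (SD 0.28 across the 95 genes), against -0.17 and 0.28 (SD 0.48) for all compared genes. Within 0.2 of 0 lay 59 of 95 members (62.1%) and 43.6% of all compared genes.

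Members were read at middling to bright signals, which matters because dim probe sets scatter more. Their median signal was 258.5 in wild type and 270.9 in UBR2-/-, and the 10th and 90th percentiles of their mean signals were 151 and 520. Among the 3090 other compared genes in that band of signal, 47.7% lay within 0.2 of 0, 94 were at least 2-fold lower and 4 at least 2-fold higher. Of the 75 members in the band, 62.7% lay within 0.2 of 0 and 0 were beyond 2-fold. Across the 94 members above the floor on both arrays, Pearson's r of the log2 signals was 0.96, and it was 0.957 across the 7798 such genes in all. Both values describe genes of the same pair of arrays, which are not independent replicates.

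**Figure D1:**
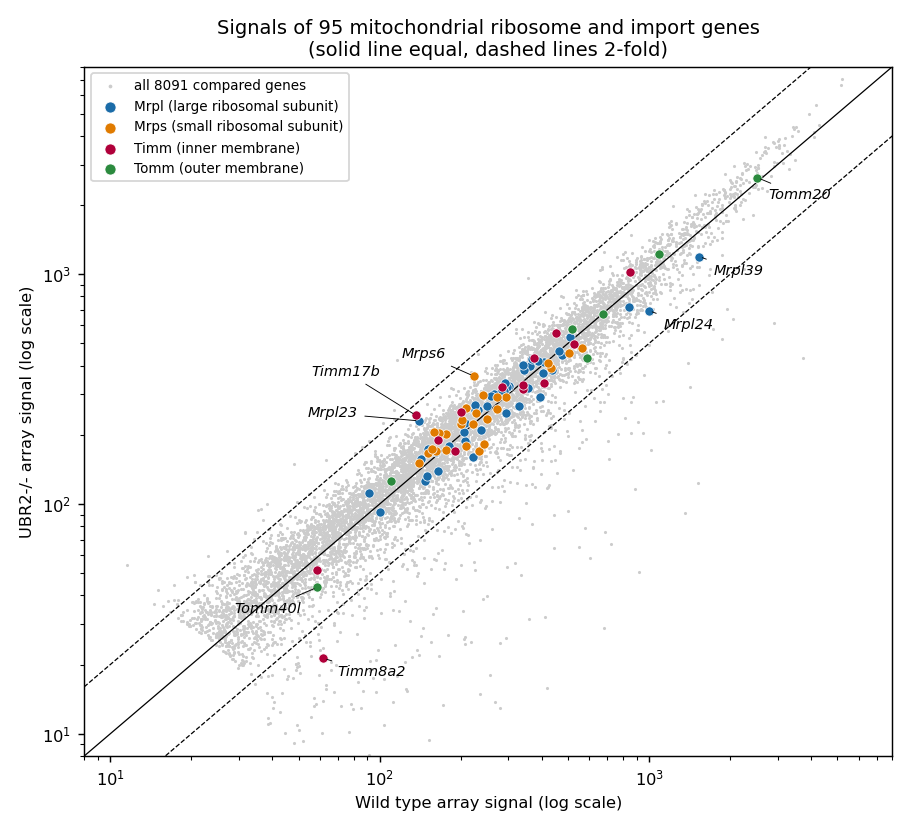
Signal on the wild type array (x axis, log scale) against the UBR2-/- array (y axis, log scale) for 95 members in 4 colours by family, over all 8091 compared genes in grey, with lines at equal signal and at 2-fold. Genes with a signal under 8 on an array lie outside the axes. Timm8a2, at 61.8 and 21.3, is the 1 member outside the 2-fold lines.

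As a family the large subunit genes centred near the median of all compared genes. Of 47 Mrpl genes 0 were beyond 2-fold in either direction. Their median log2 ratio was 0.06, and 22 exceeded the all-gene median while 25 did not (quartiles -0.17 and 0.14). The signals ran from 91.3 to 1530.3 on the wild type array and from 92.1 to 1193.6 on the UBR2-/- array. The 28 proteins with relatives in bacterial ribosomes had a median of 0.05, and the 19 particular to mitochondria had 0.06.

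Mrpl23, a large subunit protein with a bacterial relative, was the Mrpl gene farthest from 0, with signals of 140.5 and 229.9 (1.64-fold higher, log2 ratio 0.71, 1 probe set). It neighbours the imprinted genes H19 and Igf2. Of these, H19 was not read under a single symbol, and Igf2, a fetal growth factor gene, had signals of 121.5 and 151.2 (0.32). On its other side Lsp1 had 0.10, while Tnnt3 and Tnni2 were below the floor rule. The next Mrpl genes in order were Mrpl14 at 0.30, Mrpl44 at 0.26, Mrpl22 at 0.25 and Mrpl17 at 0.22, 1.17- to 1.23-fold higher. Mrpl23 thus stood 0.41 above the next Mrpl gene, a difference that rests on 1 probe set and had no replicate check.

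On the lower side the Mrpl genes formed a continuous series. Mrpl24 had signals of 997.5 and 693.6, a log2 ratio of -0.52 by 1 probe set. Mrpl37 had 221.4 and 159.9 (-0.47), and Mrpl57 had 392.2 and 292.6 (-0.42). Both rested on 1 probe set above the floor rule, and all 3 were lower on the UBR2-/- array by less than 1.5-fold. The probe sets of Mrpl24 and Mrpl37 were of a kind that can bind several transcripts, and without such probe sets neither gene had a value. Mrpl39 had signals of 1530.3 and 1193.6, and its pair of probe sets gave nearly the same ratio, -0.36 and -0.37. Mrpl51 was also read alike by its pair of usable probe sets, at -0.23 and -0.22, with signals of 844.8 and 722.2. Mrpl47, a relative of bacterial L29, had -0.30, and Mrpl32 and Mrpl38 each had -0.24.

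Several large subunit genes are named here for their tasks, a choice made after their values were seen, so they do not stand for the family. Mrpl12, known also for binding the mitochondrial RNA polymerase, had signals of 250.6 and 267 (0.09). Mrpl58, a peptide release factor that became part of the subunit, had 281 and 306.9 (0.13). Mrpl45, which anchors the ribosome to the inner membrane near the exit of the peptide tunnel, had 208.4 and 186.7 (-0.16). Mrpl11, of the stalk base, had -0.18 by its brightest probe set, with signals of 435 and 382.7, but its 4 probe sets ranged from -1.04 to 0.08. Its value of -1.04 came from a probe set with signals of 96.6 and 47. The probe sets of Mrpl9 also disagreed, with -0.51 and 0.18.

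The genes named for the small subunit likewise centred near the all-gene median. Of 27 Mrps genes 0 were beyond 2-fold. Their median log2 ratio was 0.10, and 14 exceeded the all-gene median while 13 did not (quartiles -0.08 and 0.17). Signals ran from 140.2 to 562 in wild type and from 150.6 to 574.7 in UBR2-/-. The 15 with bacterial relatives had a median of 0.10, the 10 particular to mitochondria had 0.12, and the others, Mrps18a and Mrps18b, are forms of S18. These values go by gene name. They include Mrps18a, Mrps30 and Mrps36, whose proteins are not of the small subunit, as described below.

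Mrps6, a relative of bacterial S6, was farthest from 0, with signals of 223.8 and 359.9 (1.61-fold higher, log2 ratio 0.69, 1 probe set). Its gene overlaps Slc5a3, a myo-inositol transporter gene, in the RefSeq gene table, and Slc5a3 was below the floor rule with signals of 2.3 and 4.5. Its compared neighbours on the chromosome went both ways, with Atp5o at 0.08, Itsn1 at 0.18, Smim11 at 0.18 and Cryzl1 at -0.35, and Kcne2 was below the floor rule. After Mrps6 came Mrps26 at 0.38, Mrps12 at 0.32, Mrps2 at 0.31 and Mrps35 at 0.29. Mrps12, of the decoding centre, had signals of 209.5 and 261.9, and Mrps2 had 0.31 and 0.10 in its probe sets. On the other side Mrps31 had signals of 232.9 and 169.4 (-0.46), a difference of less than 1.5-fold.

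The Mrps18 paralogs did not share 1 value. Mrps18a, whose protein sits in the large subunit despite its name, had signals of 243.5 and 182.4 (-0.42). Mrps18b and Mrps18c, both of the small subunit, each had -0.04, with signals of 177 and 172.3 and of 423 and 411.8. Each was read by 1 probe set, and the difference of Mrps18a from its paralogs had no replicate check. Mrps30, also a part of the large subunit despite its name, had 162.3 and 170.2 (0.07). Mrps36, now known as a subunit of the oxoglutarate dehydrogenase complex, had 150.8 and 166 (0.14). Mrps14 had 562 and 476.1 (-0.24), with 0.21 in its other probe set. Mrps17 had 519.5 and 574.7 (0.15), and Mrps22 had 506.2 and 455.7 (-0.15).

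**Figure D2:**
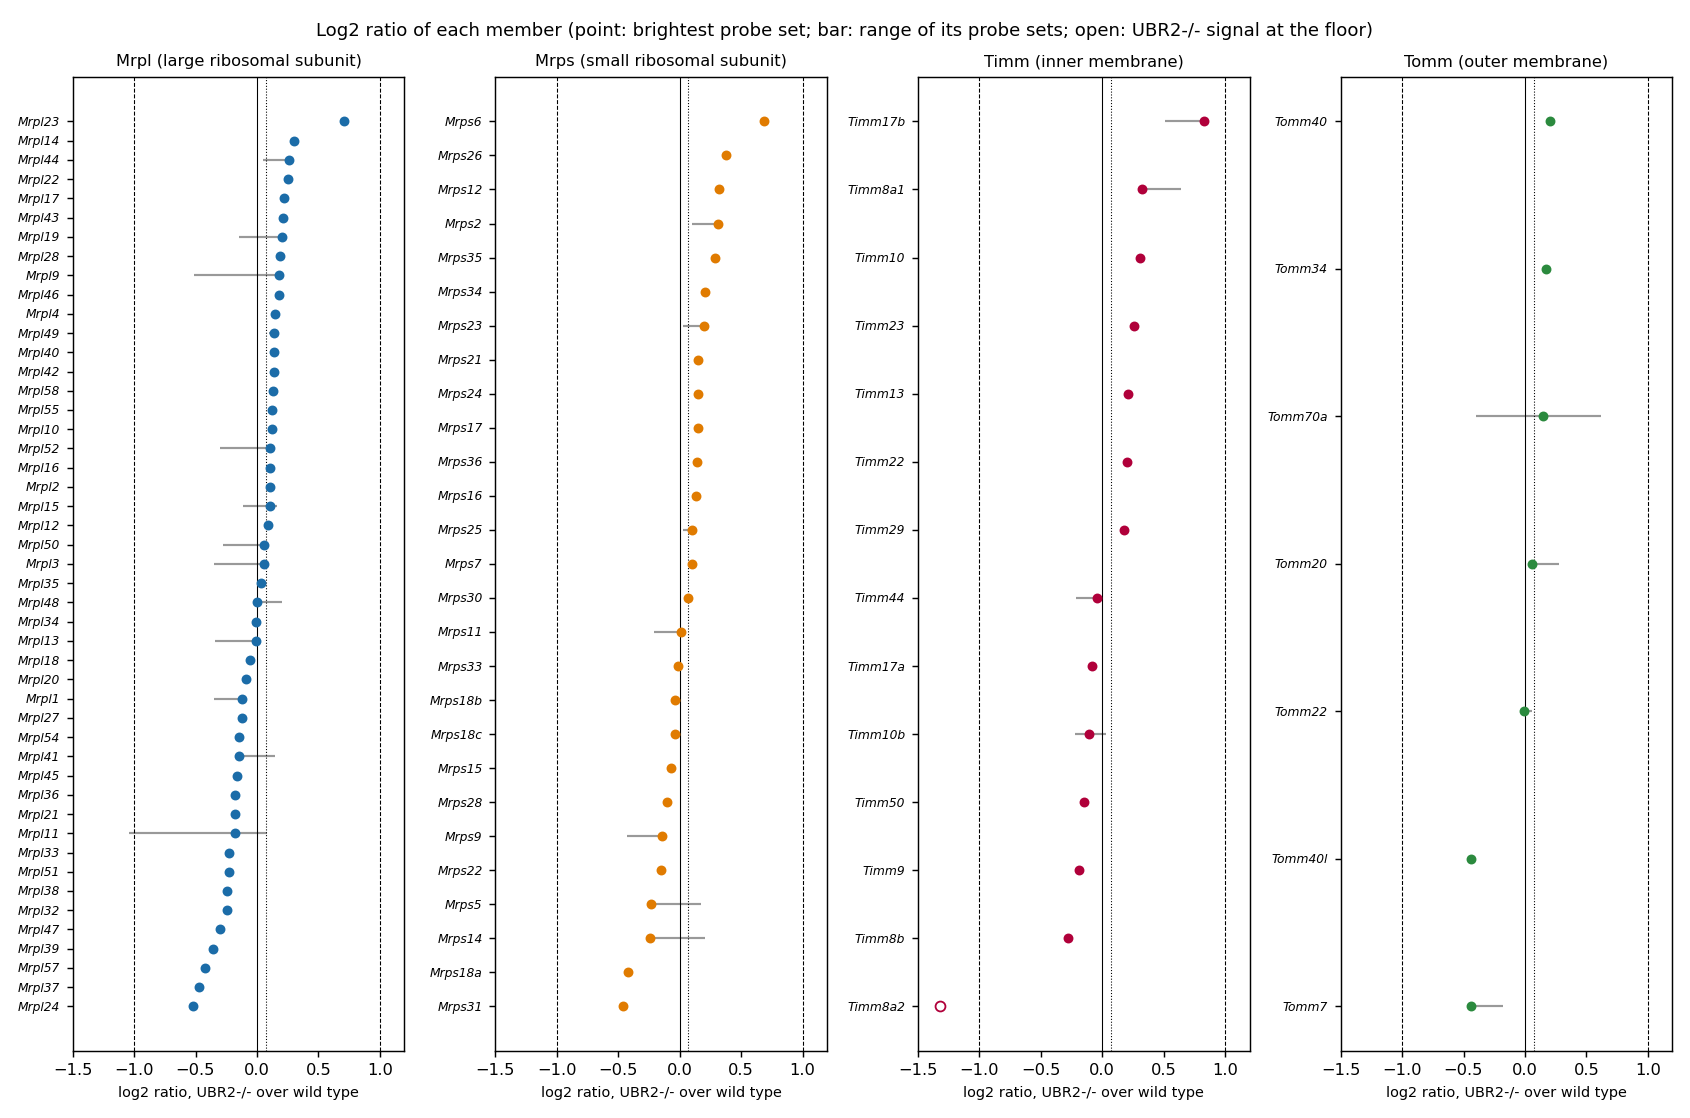
Log2 ratio (UBR2-/- over wild type, x axis) of all 95 members, 1 panel per family and sorted within it, with a point for the brightest probe set and a grey bar for the range of the gene's probe sets above the floor rule. The dotted line is the median of all compared genes (0.07) and the dashed lines mark 2-fold. Most points lie within 0.5 of 0, and Timm8a2 (open point, at the floor on the UBR2-/- array), Timm17b, Mrpl23 and Mrps6 lie apart.

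The inner membrane import genes ranged from -1.32 to 0.83, the widest range of the 4 families, around a median log2 ratio of 0.07. Of 14 Timm genes 1 was at least 2-fold lower, 0 were 2-fold higher and 13 lay between, with 7 on either side of the all-gene median. Both ends of this range belong to genes with close paralogs in the family.

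The small TIM proteins chaperone hydrophobic precursors across the space between the membranes. Timm8a2, a mouse paralog of Timm8a1 on chromosome 14, had signals of 61.8 in wild type and 21.3 in UBR2-/-. The latter is below the floor of 24.7, so it was at least 2.5-fold lower, the 1 member past 2-fold. It was read by 1 dim probe set of a kind that can bind several transcripts, and without such probe sets it had no value. Timm8a1, the X-linked gene whose human counterpart is mutated in deafness-dystonia syndrome, had signals of 201 and 250.1 (0.32), and its other probe set had 57.5 and 89.9 (0.64). Timm8b, on chromosome 9, had signals of 408.4 and 337.1 (-0.28, 1 probe set). The ratios of the 3 Timm8 paralogs therefore lay on both sides of 0, and Timm8a2 was 1.05 below Timm8b on the log2 scale even at its bound.

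The genes flanking Timm8a2 did not share its value. Ubac2 and Tm9sf2, on either side of it, had ratios of 0.11 and 0.08, and Clybl had 0.23. The partners of TIMM8 proteins lay nearer 0 as well. Timm13, which pairs with TIMM8A, had signals of 373 and 431.9 (0.21). Timm9 and Timm10, which form the other small TIM chaperone, had 58.7 and 51.4 (-0.19) and 450.6 and 557.4 (0.31). Timm10b, of the TIM22 complex, had 340.4 and 315.5 (-0.11), with 3 probe sets from -0.22 to 0.03.

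The TIM23 complex carries precursors with a presequence across the inner membrane. Its X-linked subunit gene Timm17b had signals of 136.4 and 243 (1.78-fold higher, log2 ratio 0.83), and its other probe set had 132.3 and 188 (0.51). The autosomal paralog Timm17a had 524.4 and 495.9 (-0.08, 1 probe set). Timm17b was thus above Timm17a by 0.91 on the log2 scale with its brightest probe set. Of the 274 compared X-linked genes 13 had a higher ratio than Timm17b and 153 a higher one than Timm8a1, and the X-linked genes that are no members had a median of 0.35. The X-linked neighbours of Timm17b were also above 0, with Pqbp1 at 0.40, Slc35a2 at 0.75, Pim2 at 0.66, Pcsk1n at 0.64 and Hdac6 at 0.51. Timm17b and Timm8a1 were the 2 X-linked members, and the other 93 had a median of 0.06.

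The remaining inner membrane genes were close to 0. Timm23, which forms the channel region, had signals of 851.5 and 1021 (0.26), and Timm50, its presequence receptor, had 189.7 and 170.8 (-0.15). Timm44, which tethers the import motor, had 339.8 and 329.4 (-0.04), with 3 probe sets from -0.21 to 0. Timm22, the core of the complex that inserts carrier proteins, had 165 and 189.6 (0.20), and its partner Timm29 had 284.3 and 322.9 (0.18 and 0.22 in its probe sets).

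Of the 7 outer membrane genes 0 were beyond 1.5-fold. Their median log2 ratio was 0.06, with 3 over and 4 under the all-gene median. Tomm20, the receptor for presequences, had signals of 2519.7 and 2631.2 (0.06), and all 5 of its probe sets were above 0, up to 0.28. Tomm22, the central receptor, had 675 and 670.3 (-0.01). Tomm70a, the receptor for carrier proteins, had 519.2 and 575 (0.15) by the probe set brightest on average, but its 4 probe sets ranged from -0.40 to 0.62. The others had 541 and 410.7 (-0.40), 467.5 and 384.2 (-0.28) and, at dim signal, 54.7 and 84.3 (0.62).

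Tomm40, the channel itself, had signals of 109.8 and 125.8 (0.20). Its paralog Tomm40l had 58.7 and 43.4 (-0.44), so the pair differed by 0.63 on the log2 scale, each by 1 probe set. Tomm7, a small subunit that stabilises the complex, had 589.9 and 433.6 (-0.44), and its 3 usable probe sets were all below 0, up to -0.18. Tomm34, a cytosolic co-chaperone that carries the name but is no part of the complex, had 1086.1 and 1221.3 (0.17).

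Agreement between probe sets could be read for 34 members with at least 2 probe sets above the floor rule. For 31 of them the lowest and highest log2 ratio differed by less than 0.5. The 3 that differed by more were Mrpl11 (by 1.12), Tomm70a (by 1.02) and Mrpl9 (by 0.69). In 18 of the 34 all probe sets lay on the same side of 0, among them Mrpl39, Mrpl28, Mrps9, Tomm7, Tomm20, Timm17b and Timm8a1. For 39 members the brightest probe set was of a kind that can bind several transcripts. Of the 169 probe sets 20 were below the floor rule, and 61 members rested on 1 usable probe set, among them Mrpl23, Mrps6 and Timm8a2.

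**Figure D3:**
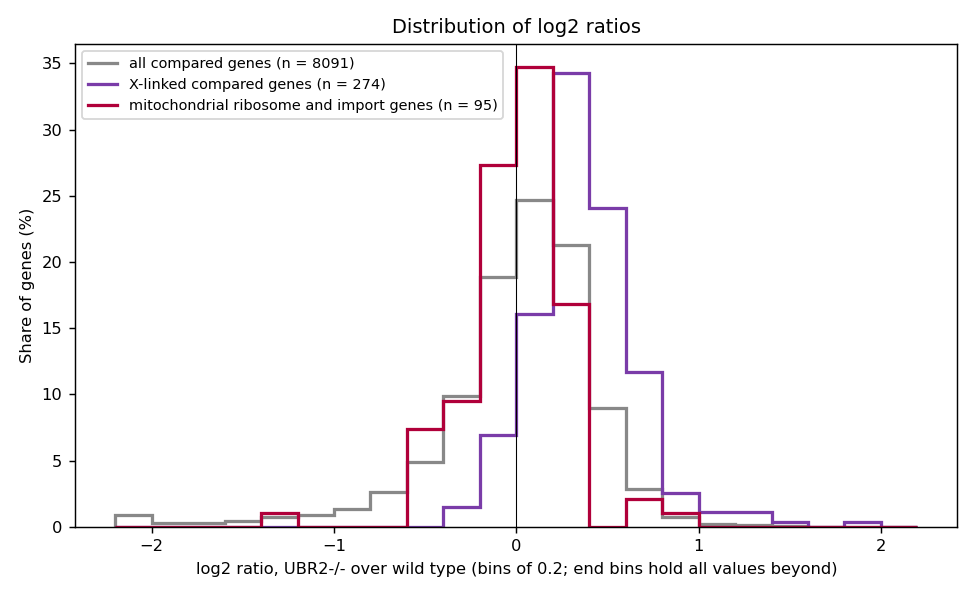
Share of genes (y axis, %) by log2 ratio (x axis, UBR2-/- over wild type, bins of 0.2) for all compared genes (grey), X-linked compared genes (purple) and the 95 members (red). The members form a narrow peak around 0, all compared genes have a tail on the lower side, and X-linked genes sit to the right with a median of 0.35.

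Partners of these genes that carry other names were taken from lists fixed by name, also with earlier results of these data known. Of 5 further mitoribosomal proteins and associated factors 0 were beyond 1.5-fold and the median was -0.01, with Dap3 of the small subunit at 0.12 (signals of 960.7 and 1042.1), Ptcd3 at 0.14, Chchd1 at -0.05 and Gadd45gip1 at -0.09. The 8 compared translation factors, all within 1.5-fold, had a median of -0.05, from -0.32 for Mtfmt, which formylates the initiator tRNA, to 0.20 for the recycling factor Mrrf. The elongation factor Tufm had 94.9 and 82.7 (-0.20), and the recycling factor Gfm2 had 0.10. Of 13 genes that charge mitochondrial tRNA 0 were beyond 2-fold, 1 was at least 1.5-fold higher and 1 at least 1.5-fold lower. Their median was -0.03. Gatb, a subunit of the enzyme that makes glutaminyl-tRNA, was lowest at -0.69 (signals of 94 and 58.3), and the seryl-tRNA synthetase gene Sars2 was highest at 0.61 (41 and 62.6). Both were dim. Rars2 and Pars2 came next, at -0.24 and 0.35.

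Of 19 compared genes for mitoribosome assembly and rRNA modification 0 were beyond 2-fold and 1 was at least 1.5-fold lower. Their median was -0.05, with 7 over and 12 under the all-gene median. The lowest ratio was that of Dhx30, an RNA helicase, with signals of 909.5 and 601.6 (-0.60, probe sets from -0.89 to -0.57). Tfb1m, an rRNA methyltransferase, had 302.8 and 206.2 (-0.55, probe sets from -0.55 to -0.20), and Mterf3 had 773.7 and 538.9 (-0.52). Afg3l2, a protease that processes Mrpl32 protein, was highest at 0.46, followed by Noa1 at 0.34. Among the 16 genes for copying and expressing mitochondrial DNA the median was -0.02 and 0 were beyond 1.5-fold, with the X-linked Hsd17b10 at 0.34, Tfam, which packages the DNA, at 0.28, the DNA polymerase gene Polg at -0.31 and Tefm, an elongation factor of the RNA polymerase, at -0.41. The 7 compared regulators had a median of 0.14, with Tfam at 0.28, Pprc1 at 0.25, the ETS factor gene Gabpa at 0.14, Nrf1 at 0.03 and Yy1 at -0.15. The probe sets of Yy1 ranged from -0.26 to 0.51 and those of Nrf1 from -0.17 to 0.40.

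Import partners lay slightly lower. Of 19 compared genes 0 were beyond 1.5-fold. Their median was -0.11, with 4 over and 15 under the all-gene median. The motor subunit Pam16 had signals of 549.6 and 408.4 (-0.43), and Dnajc15, another motor component, had 542.1 and 397.3 (-0.45). The chaperonin gene Hspd1 went the other way, with 1201.7 and 1704.6 (0.50), and Grpel2, a nucleotide exchange factor of the motor, had 150.1 and 194 (0.37). Among 17 genes for mitochondrial membranes and mass the median was 0.16. Vdac1, a channel of the outer membrane, had 0.57, with probe sets from 0.36 to 0.57. Opa1, which fuses inner membranes, had -0.43, with probe sets from -0.43 to 0.07. The 1 gene past 2-fold there was Cyct, the testis form of cytochrome c, with signals of 858.3 and 276.5 (-1.63), while the general form Cycs had 1658.4 and 1851.5 (0.16).

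Cell type markers moved on the same arrays, and their part in the members' values was not tested. All 10 pachytene spermatocyte markers were at least 1.5-fold lower and 7 of them at least 2-fold lower, with a summed signal of 10329.5 in wild type and 2606.8 in UBR2-/-. Pgk2, Adam3 and Acrbp among them were below the floor on the latter. The summed signal of the 9 Sertoli markers read was 8431.1 and 10917, with 7 over and 2 under the all-gene median. Clu alone had 5186.1 and 7075.9, the largest part of both sums. The 2 under the median were Amh, with 59.7 and 25.5 (-1.23), and Rhox5 (-0.08). All 5 peritubular myoid markers lay above the all-gene median, with sums of 1663.8 and 2339.3. The 6 early meiotic markers had sums of 10282.5 and 9932, with 0 over and 6 under that median. The 7 spermatogonia markers had 5013 and 5862.2, with 5 over and 2 under. The 5 Leydig markers had 1099.8 and 1165.5, with 4 over and 1 under, from -0.59 for Cyp11a1 to 0.80 for Star. The 5 macrophage markers had 555.3 and 492.8, with 0 over and 5 under. The 5 endothelial markers had 120.3 and 138.9, and of the 4 compared 2 were over and 2 under. Early meiotic, spermatogonia and Sertoli markers that were read lay above the floor on both arrays. Des of the myoid list and Kdr of the endothelial list were below it in wild type, Pecam1 was below it in UBR2-/-, and Vwf was below it on both.

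**Figure D4:**
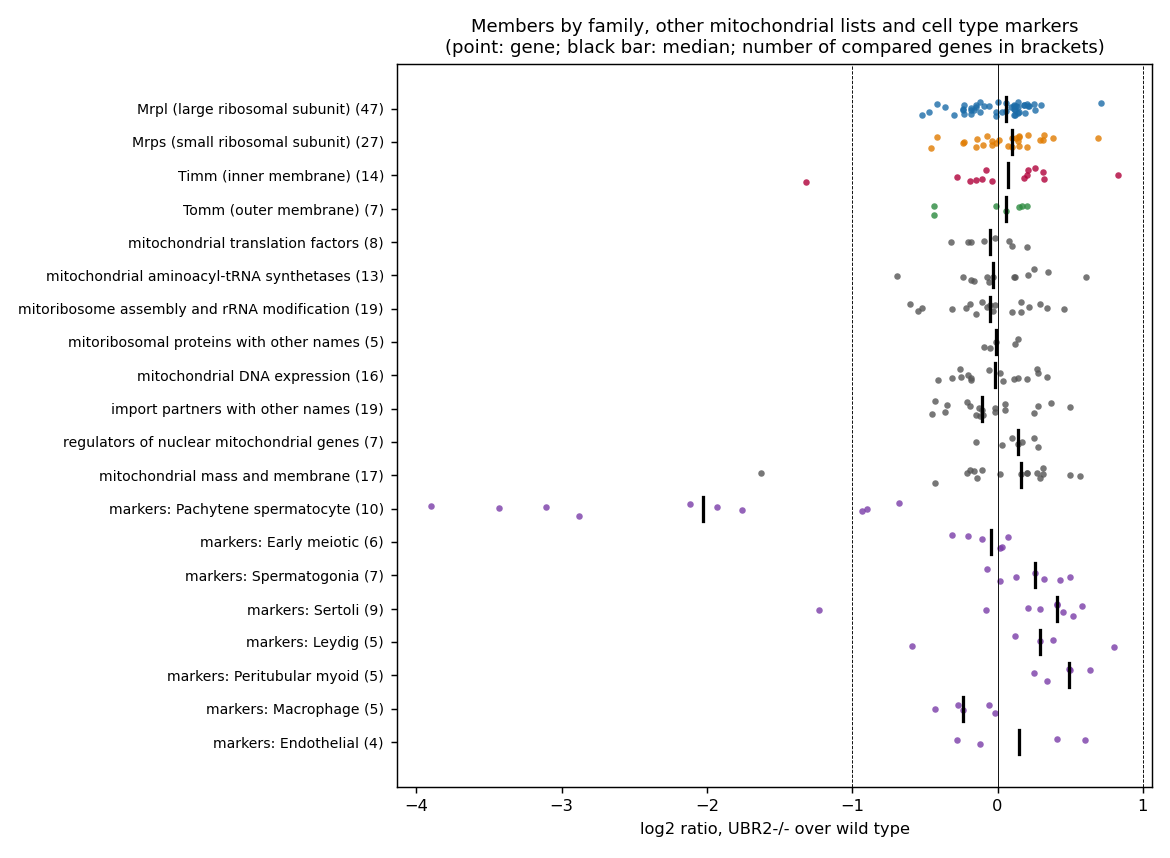
Log2 ratios (x axis, UBR2-/- over wild type) of single genes (points) and list medians (black bars) for the 4 families, the other mitochondrial lists in grey and the cell type markers in purple, with dashed lines at 2-fold. The medians of the mitochondrial lists lie between -0.11 and 0.16, and that of the pachytene markers is -2.02.

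The direction of small values depends on scaling. Over the 42 probe sets named for spike-in controls the log2 ratio, taken with no floor or signal filter, had a median of 0.35. Scaling to these controls, in place of the deposited scaling, takes the median of all compared genes from 0.07 to -0.28 and that of the members from 0.06 to -0.29. Relative to all genes, 46 members were over and 49 under the median with that scaling as well. Timm17b, Mrpl23 and Mrps6 were above 0 with it, at 0.48, 0.36 and 0.33, and Timm8a1 was at -0.04.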

How the data were processed

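Both arrays (1 wild type, 1 UBR2-/-) are of the Affymetrix mouse 430A 2.0 design, as the series text states. The authors deposited 1 linear intensity for each probe set and array. Per the submitters' processing notes the tool was MAS5, which summarises the probes of a set. The sources used here give neither version nor settings. Each array had a 2% trimmed mean of 150.04, so a common scaling was present in the deposited values, and it was kept.

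Of 22626 probe sets that are no controls, 20380 had 1 symbol, 691 several and 1555 none in GEO's probe annotation, which may be outdated. Those with 1 symbol were joined by Entrez identifier, and chromosomes and neighbours came from the GRCm38.p6 RefSeq table, which all 95 members matched. The brightest probe set stood for a gene. Calculations used Python 3.11.15 with pandas 2.3.3, numpy 2.4.6 and statsmodels 0.14.6, and were tested on simulated data. Probe set SDs come from the 2 brightest probe sets of a gene (2894 genes), as the median absolute difference scaled to 1 probe set. The number of arrays limits the precision.

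The members, lists and alternatives were chosen with earlier results of these data known. Named were the 10 highest and 10 lowest members, those 1.5-fold off or at the floor on 1 array, the 3 brightest of each family, X-linked members, those whose probe sets differed by 0.5 or more, paralog sets, and the 2 highest and 2 lowest of each other list. Further genes are named for their role, chosen after their values were seen. Alternatives were quantile normalization, loess (span 0.3), scaling to the array median or the spike-in controls, floors at the 25th and 60th percentiles, a pseudocount of 10 with no floor, averaging a gene's probe sets, dropping sets that may bind several transcripts (names ending in _s_at, _x_at or _a_at), no filter, and 1.5-fold.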

Additional observations from a re-analysis of the deposited data

How the results depend on the processing

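With spike-in scaling left aside, the median of all members ran from 0.01 to 0.08 over the alternatives, that of Mrpl from -0.01 to 0.06, of Mrps from -0.01 to 0.11, of Timm from 0.03 to 0.23 and of Tomm from -0.05 to 0.10, so the side of 0 of the Mrpl, Mrps and Tomm medians depended on the setting. Spike-in scaling took the median of all members to -0.29, of Mrpl to -0.30, of Mrps to -0.26, of Timm to -0.28 and of Tomm to -0.29, by its construction as a shift of all genes. Dropping the sets that may bind several transcripts kept 68 members and took the Timm median to 0.23. It also took the count of members at least 2-fold lower from 1 to 0, since Timm8a2 has no other probe set, as did a floor at the 60th percentile, under which Timm8a2 was not compared and 92 members were. The threshold of 1.5-fold gave 3 members higher in place of 0. Of the 95 members, 42 had the same sign in every setting that gave a value and 82 when spike-in scaling was left aside. Over all compared genes, the 28 at least 2-fold higher became 132 with the floor at the 25th percentile, 8 with it at the 60th, 17 with loess or a pseudocount and 7 with spike-in scaling. The 285 lower became 528 with spike-in scaling and 152 with the floor at the 60th percentile. No paired analysis was possible because each genotype has 1 array. Signals near the floor limit what can be said of Timm8a2, Timm9 and Tomm40l.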
